A study of Mus musculus with 6 samples.

Results

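A set of 10 genes of the immediate early response, the first genes that cells switch on after a stimulus or a stress, was measured in stomach RNA from mice given Riclin and from mice given saline. They were taken by symbol from the deposited expression table of 23550 genes, and all 10 were found in it: Fos, Fosb, Jun, Junb, Egr1, Atf3, Ier2, Dusp1, Nr4a1 and Zfp36. Riclin is a bacterial polysaccharide studied as a dietary fibre. It was given by gavage at 20 mg per kg for 14 days, and the control mice received normal saline by the same route, for which the labels print the same dose. There were 3 libraries in each group, Riclin replicates 2, 3 and 4 and saline replicates 1, 2 and 4. The series text describes a feeding experiment and a second one that ended with fasting and ethanol injury, and no source used here says which of them these libraries came from, though no label names ethanol. The series text gives cervical dislocation after anaesthesia as the way mice were killed. The strain, sex, age and delay before freezing were not stated. The labels do not say that each library is a separate animal, so p-values measure the spread between these libraries only.

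Immediate early genes are transcribed within minutes of a signal without new protein synthesis, because the factors that start them already sit in the cell and need only be phosphorylated. MAP kinases act through serum response factor and its partners, and cyclic AMP and calcium act through CREB. Most of their messenger RNAs are short-lived, so their levels follow recent signals, in tissue samples also those of handling and dissection. In the gastric mucosa this response is known to follow injury, growth factors and acid.

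The 10 members fall into 4 roles. Fos, Fosb, Jun, Junb and Atf3 encode leucine zipper proteins that pair with one another into AP-1 and related dimers. Egr1 encodes a zinc finger transcription factor and Nr4a1 an orphan nuclear receptor (Nur77) that is induced, among other signals, by T cell receptor signalling. Dusp1 encodes a nuclear phosphatase that switches MAP kinases off, and Zfp36 encodes tristetraprolin, which binds AU-rich messenger RNAs and speeds their decay. Ier2 encodes a small nuclear protein of the early response.

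No member differed between the groups past the adjusted threshold. Nr4a1 was the member with the widest separation: its 3 Riclin libraries lay close together at 1.05, 1.12 and 1.04 FPKM, and its saline libraries lay at 1.77, 2.38 and 3.41 FPKM. FPKM values are fragment counts scaled by gene length and by library size, so they may be compared between genes as levels per length. Atf3 was also lower in each Riclin library than in any saline library, by a smaller margin, and Jun was higher in each. The other 7 members overlapped between the groups. Of these, Fos, Fosb, Egr1, Zfp36 and Dusp1 had group means that differed by less than the larger of the 2 group SDs, and Junb and Ier2 had nearly equal group means.

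The sequences before the transcription start show how these genes differ in the element that CREB and ATF proteins bind, whose core is TGACG. The 250 bases before the RefSeq start (GRCm38.p6) are given 5′ to 3′ on the gene's strand for Nr4a1 and Atf3, the members lower in each Riclin library, and for Dusp1 and Fos, whose groups overlapped. Capitals mark TGACG on either strand, where CGTCA is the same element read on the other strand.
Nr4a1, chr15:101266596-101266845, plus strand: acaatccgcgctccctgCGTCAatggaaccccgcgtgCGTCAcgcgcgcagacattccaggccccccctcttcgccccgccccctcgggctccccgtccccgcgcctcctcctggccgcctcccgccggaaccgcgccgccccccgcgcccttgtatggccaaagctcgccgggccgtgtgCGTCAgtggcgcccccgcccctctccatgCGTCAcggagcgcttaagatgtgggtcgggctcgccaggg
Atf3, chr1:191183334-191183583, minus strand: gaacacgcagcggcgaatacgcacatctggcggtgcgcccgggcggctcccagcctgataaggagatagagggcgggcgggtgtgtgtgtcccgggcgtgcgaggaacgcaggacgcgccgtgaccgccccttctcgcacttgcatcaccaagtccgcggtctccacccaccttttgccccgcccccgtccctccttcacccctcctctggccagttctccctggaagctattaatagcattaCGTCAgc
Dusp1, chr17:26508473-26508722, minus strand: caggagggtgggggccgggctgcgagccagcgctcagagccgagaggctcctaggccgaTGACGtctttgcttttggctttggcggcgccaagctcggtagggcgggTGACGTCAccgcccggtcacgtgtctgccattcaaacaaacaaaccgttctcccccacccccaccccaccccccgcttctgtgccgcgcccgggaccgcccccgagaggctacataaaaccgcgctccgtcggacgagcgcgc
Fos, chr12:85473640-85473889, plus strand: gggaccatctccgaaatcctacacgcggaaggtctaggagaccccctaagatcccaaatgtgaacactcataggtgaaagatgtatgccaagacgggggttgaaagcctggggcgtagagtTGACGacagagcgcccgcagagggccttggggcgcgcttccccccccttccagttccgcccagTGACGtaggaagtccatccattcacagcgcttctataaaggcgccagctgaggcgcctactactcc

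The Nr4a1 window held 4 copies of TGACG, the first beginning 233 bases and the last 40 bases before the start. Dusp1 held 3 copies, 2 of which overlap to form the full palindrome TGACGTCA. Fos held 2, at 129 and 66 bases before the start, and Atf3, Fosb and Junb held 1 each. Jun and Zfp36 held 0. Windows of this length were searched on both strands for all 32817 RefSeq promoters in the table, and 17.8% of them held TGACG at least once, 0.689% at least 3 times and 0.137% at least 4 times. The palindrome TGACGTCA, which contains TGACG on both strands, was in 1.55% of the windows. The AP-1 site TGANTCA was in 6.75% of all windows and in 0 of the 8 members' windows. The CArG box, which serum response factor binds, was in 1.47% of all windows and, among the 8 members searched, in Zfp36 only. Only these exact patterns within 250 bases were searched, so a count of 0 does not show that a gene lacks such sites. RefSeq windows were used for 8 of the 10 members. Egr1 and Ier2 were not searched, so nothing is said of their elements. Each window belongs to 1 RefSeq start. For Nr4a1, Atf3, Dusp1 and Zfp36 it lies inside the annotated gene, so any start further upstream was not searched. A match in the letters is a description and was not tested for binding.

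On a GRCm38 annotation (GENCODE M21) all 10 are protein-coding genes. Nr4a1 lies on chromosome 15 from 101254269 to 101274795 on the plus strand, Atf3 on chromosome 1 from 191170296 to 191218039 on the minus strand, and Jun on chromosome 4 from 95049034 to 95052222 on the minus strand. Fos lies on chromosome 12 from 85473890 to 85477273 on the plus strand. The Jun gene overlaps the antisense gene Junos, and Junb overlaps Prdx2 on the opposite strand, as Dusp1 does Ergic1. Whether counting used strand was not stated, so reads of such a pair cannot be told apart. No annotated gene overlaps Nr4a1, Fos, Fosb, Egr1 or Ier2.

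The libraries held between 30689019 and 39772511 reads assigned to genes, a range of 1.30-fold, as recovered from the FPKM values. Markers of parietal cells summed to 4136 to 5581 FPKM in the Riclin libraries and 3100 to 4582 FPKM in the saline libraries, and surface mucous markers to 58160 to 82950 FPKM and 61610 to 105100 FPKM, so the tissue was stomach by its defining genes. Transcripts of the exocrine pancreas took 13.9, 0.0756 and 13.0% of reads in Riclin replicates 2, 3 and 4, and 5.12, 20.6 and 19.0% in saline replicates 1, 2 and 4. Riclin replicate 3 stood apart in this, and without it the median log2 fold change of the members tested was -0.28, beside -0.20 with it. Because each library holds bulk tissue, fewer cells of a type and less RNA per cell cannot be told apart.

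**Figure D1:**
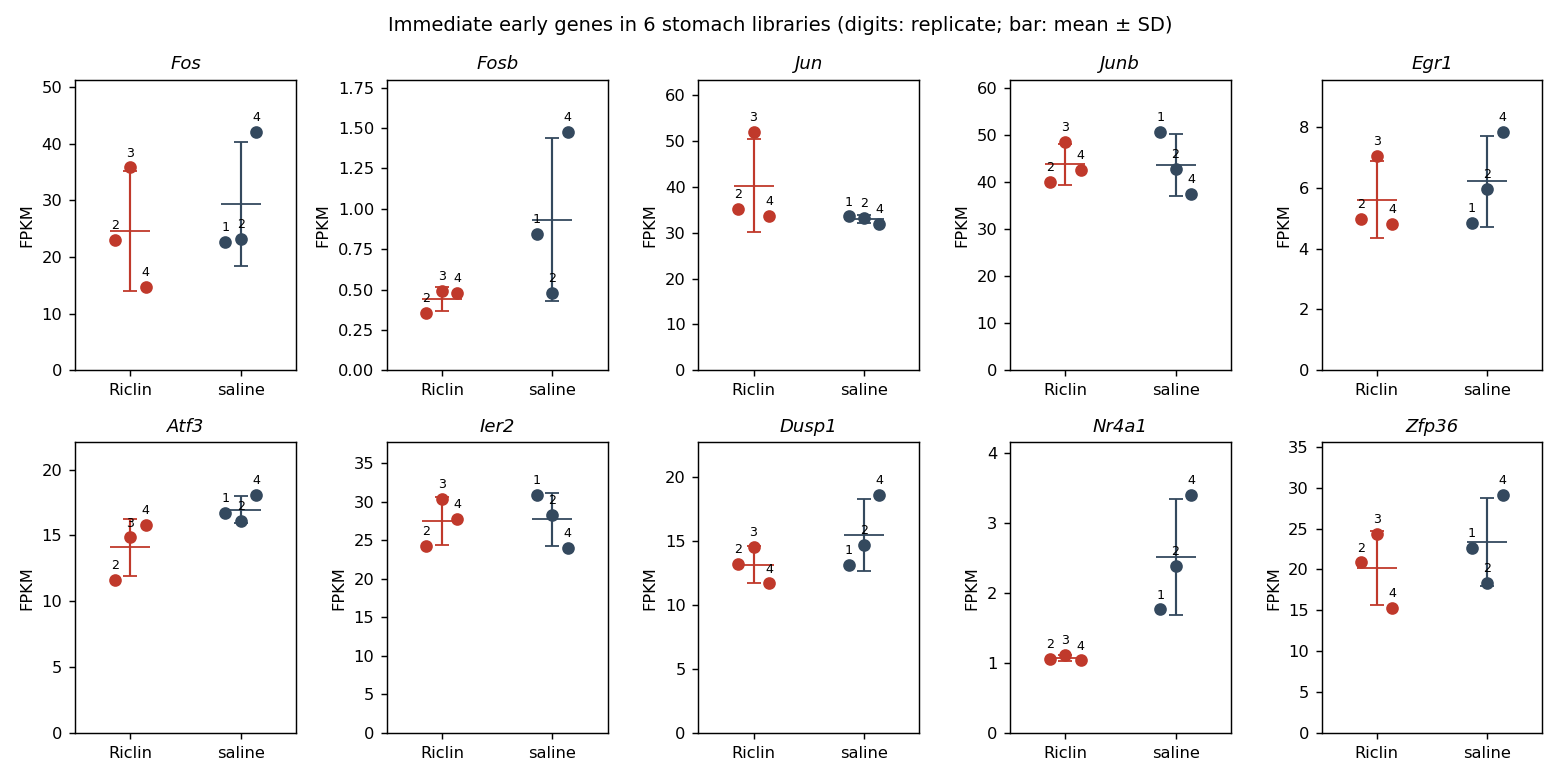
Level of each immediate early gene in FPKM (vertical axes start at 0) in the 3 Riclin and 3 saline libraries, each point 1 library with its replicate number, bars the mean ± SD. Nr4a1 is at 1.04 to 1.12 FPKM in the Riclin libraries and 1.77 to 3.41 FPKM in the saline libraries, while most members overlap.

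Nr4a1 averaged 1.07 ± 0.0418 FPKM in Riclin and 2.52 ± 0.828 FPKM in saline (SD, n = 3 each), 2.36-fold lower in Riclin by the means. The reads behind these values numbered 201, 229 and 202 in the Riclin libraries and 352, 440 and 539 in the saline libraries. Even the nearest libraries did not meet in counting error: the 95% exact Poisson interval was 0.976 to 1.27 FPKM in Riclin replicate 3, the highest of its group, and 1.59 to 1.96 FPKM in saline replicate 1, the lowest of its group. On the log2(FPKM + 1) scale, which understates the change of low genes, the difference was -0.74 (SE 0.168). By limma the unadjusted p was 0.00252 and the Benjamini-Hochberg adjusted p over all 11738 genes tested was 0.629, so the difference did not pass the threshold of 0.05. Without saline replicate 4, the highest library, the log2 fold change was -0.57.

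Nr4a1's 2 relatives, which bind the same DNA element, gave other values. Nr4a2 measured 6.27, 7.05 and 7.56 FPKM in the Riclin libraries and 5.80, 5.41 and 6.54 FPKM in the saline libraries, a log2 fold change of 0.20 (SE 0.109, limma adjusted p = 0.841). Nr4a3 was too low to be tested, at 0.760, 1.02 and 0.779 FPKM in Riclin and 0.574, 0.306 and 0.853 FPKM in saline. Neither relative had its Riclin libraries below its saline libraries.

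Summed markers of T cells moved with Nr4a1 in direction: 5 of the 6 listed genes were in the table, and they summed to 2.01, 2.82 and 3.16 FPKM in the Riclin libraries and to 8.81, 4.32 and 12.5 FPKM in the saline libraries. No T cell marker in the table was at 0, but only 2 of the 5 were high enough to be tested. Antral markers (Gast and Pdx1) were also lower in each Riclin library. They summed to 424, 393 and 4.55 FPKM in Riclin replicates 2, 3 and 4, and to 1043, 683 and 951 FPKM in saline replicates 1, 2 and 4. Riclin replicate 4 thus stood far below the other Riclin libraries in this sum. Saline replicate 4 was highest in Nr4a1 and in the T cell sum, but saline replicate 2 was above saline replicate 1 in Nr4a1 and below it in the T cell sum. The part of T cells or of the antrum in the Nr4a1 values was not tested.

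**Figure D2:**
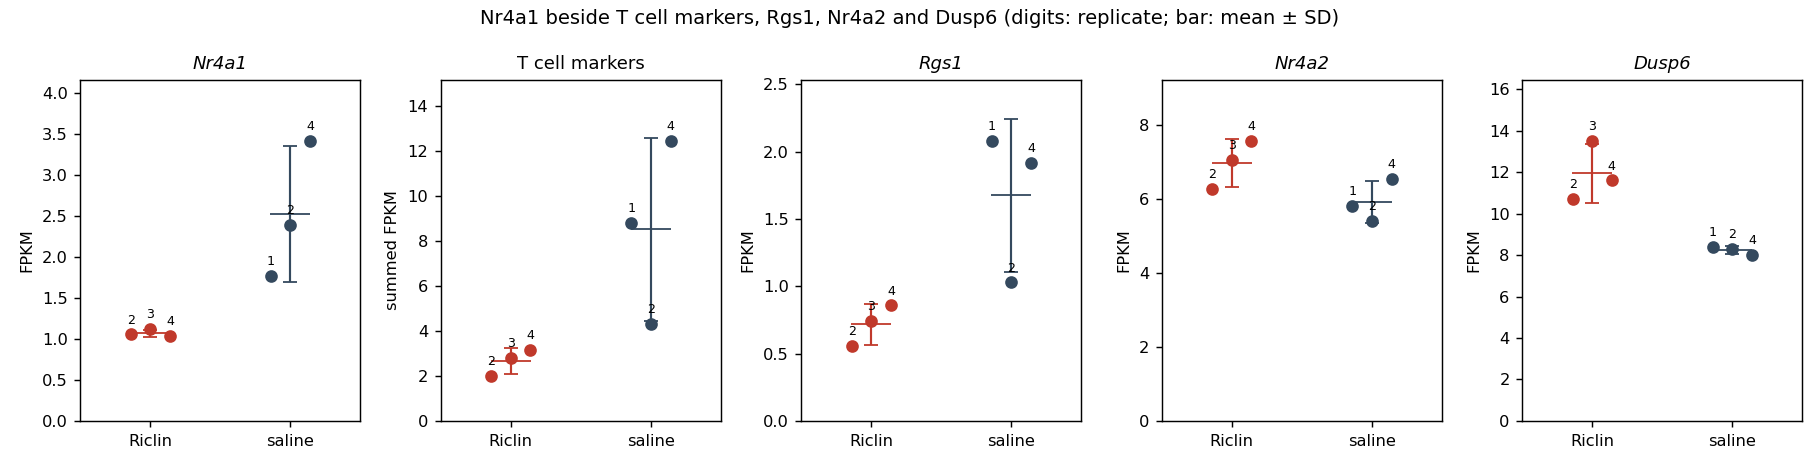
Nr4a1, the summed T cell markers, Rgs1, Nr4a2 and Dusp6 in FPKM in the 3 Riclin and 3 saline libraries, each point 1 library with its replicate number, bars the mean ± SD. The Riclin libraries lie below all saline libraries in the first 3 panels and above them in Dusp6, and the groups overlap in Nr4a2. Rgs1 passed the filter through its saline libraries alone.

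Among the Fos family, Fos measured 23.1, 35.8 and 14.8 FPKM in Riclin replicates 2, 3 and 4 and 22.7, 23.3 and 42.1 FPKM in saline replicates 1, 2 and 4. The highest library was saline and the lowest Riclin, but a Riclin library stood second and the groups overlapped. The log2 fold change was -0.28 (SE 0.338, limma adjusted p = 0.925). Leaving out saline replicate 4 gave 0.0051 and leaving out Riclin replicate 4 gave 0.030, so the sign rested on these libraries. Fos had the largest spread of the members, with a within-group SD of 0.55 on the log2 scale, above that of 96.4% of the genes tested.

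Fosb, whose product pairs with Jun proteins as Fos does, was the lowest member and did not pass the filter for testing. It measured 0.355, 0.489 and 0.481 FPKM in the Riclin libraries, from 50, 74 and 69 reads. In the saline libraries it measured 0.845, 0.478 and 1.47 FPKM, from 124, 65 and 172 reads. Saline replicates 1 and 4 were above every Riclin library, and saline replicate 2 lay among them. The difference of the means on the log2(FPKM + 1) scale was -0.39, and -0.82 with a pseudocount of 0.1.

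In the Jun family, Jun measured 35.2, 52.0 and 33.7 FPKM in Riclin replicates 2, 3 and 4 and 33.6, 33.3 and 32.0 FPKM in saline replicates 1, 2 and 4. Its saline libraries were close to one another, and its Riclin mean rested on replicate 3: the log2 fold change of 0.26 (SE 0.168, limma adjusted p = 0.851) was 0.064 without that library. The groups nearly met, at 33.7 FPKM in Riclin replicate 4 and 33.6 FPKM in saline replicate 1, and overlapped under each of the 3 other scalings of the libraries. Junb, the member with the highest mean, measured 40.1, 48.5 and 42.7 FPKM in Riclin and 50.6, 42.9 and 37.4 FPKM in saline. Its log2 fold change was 0.01 (SE 0.141, limma adjusted p = 0.994), and its sign turned with scaling.

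Atf3, a stress-induced factor that pairs with Jun proteins, measured 11.6, 14.8 and 15.8 FPKM in Riclin replicates 2, 3 and 4 and 16.7, 16.1 and 18.1 FPKM in saline replicates 1, 2 and 4. The groups did not overlap, though Riclin replicate 4 and saline replicate 2 nearly met. The log2 fold change was -0.26 (SE 0.129, limma unadjusted p = 0.0800, adjusted p = 0.823). It was -0.14 without Riclin replicate 2, the lowest library, and the groups overlapped with upper-quartile scaling and with pancreatic transcripts removed.

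Egr1 measured 4.97, 7.07 and 4.81 FPKM in Riclin and 4.87, 5.96 and 7.84 FPKM in saline, with a log2 fold change of -0.12 (SE 0.186, limma adjusted p = 0.934). Its sign turned without saline replicate 4, where the value was 0.034. Ier2 measured 24.3, 30.4 and 27.8 FPKM in Riclin and 30.9, 28.3 and 24.0 FPKM in saline. Its log2 fold change of -0.01 (SE 0.134, limma adjusted p = 0.994) lay nearest to 0 with that of Junb.

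The 2 members that dampen the response had lower means in Riclin within overlapping groups. Dusp1 measured 13.2, 14.5 and 11.7 FPKM in Riclin and 13.1, 14.7 and 18.6 FPKM in saline, with a log2 fold change of -0.21 (SE 0.146, limma adjusted p = 0.863). Zfp36 measured 20.9, 24.3 and 15.3 FPKM in Riclin and 22.6, 18.4 and 29.1 FPKM in saline, with a log2 fold change of -0.20 (SE 0.209, limma adjusted p = 0.907). For both, Riclin replicate 4 was the lowest library and saline replicate 4 the highest. Without saline replicate 4 the Dusp1 value was -0.077 and that of Zfp36 was -0.038, and without Riclin replicate 4 that of Zfp36 was -0.027.

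**Figure D3:**
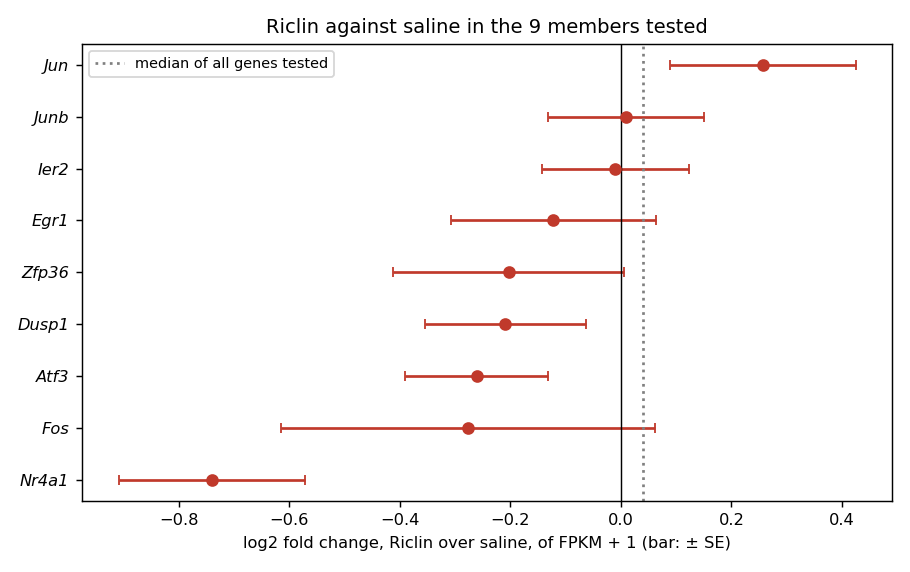
Log2 fold change of the 9 members tested, Riclin over saline on the log2(FPKM + 1) scale, with bars of ± SE and a dotted line at the median of all genes tested (0.040). Nr4a1 lies lowest at -0.74, Jun highest at 0.26, and the other 7 between -0.28 and 0.01.

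Over the 9 members tested, 7 had lower and 2 higher values in Riclin. Their median log2 fold change was -0.20, beside 38.7% lower and a median of 0.04 over all 11738 genes tested. The median was -0.03 without Riclin replicate 4 and -0.08 without saline replicate 4. By limma 0 of the 9 passed an adjusted p of 0.05, as did 0% of all genes. An unadjusted p under 0.05 was found for 1 member, Nr4a1, lower in Riclin, where 1.83% of all genes were lower by that count and 4.07% higher. Counted over all 10 members, the groups did not overlap in 2 that were lower, Nr4a1 and Atf3, and in 1 that was higher, Jun. Over all genes tested the same was seen in 3.02% for lower and in 8.14% for higher. The share of lower genes depends on scaling: of the genes with an unadjusted p under 0.05, 31.0% were lower as deposited, 54.0% with median-of-ratios scaling, 46.6% with upper-quartile scaling and 74.8% after removal of pancreatic transcripts. Among the members, the set lower in each Riclin library was Nr4a1, Atf3 and Fosb with median-of-ratios scaling, and Nr4a1 and Fosb with upper-quartile scaling or with pancreatic transcripts removed. Over all genes tested, 6.84% were lower in this way with median-of-ratios scaling, 5.94% with upper-quartile scaling and 10.3% with pancreatic transcripts removed. Nr4a1 was in the set under every scaling run.

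The members did not rise and fall as one group over the libraries. Fos and Egr1 ranked the 6 libraries in the same order, from saline replicate 4 through Riclin replicate 3, saline replicate 2, Riclin replicate 2 and saline replicate 1 to Riclin replicate 4. Junb and Ier2 shared another order, from saline replicate 1 through Riclin replicate 3, saline replicate 2, Riclin replicate 4 and Riclin replicate 2 to saline replicate 4. Saline replicate 4 was therefore highest for 7 members (Fos, Fosb, Egr1, Atf3, Dusp1, Nr4a1 and Zfp36) and lowest for the other 3 (Jun, Junb and Ier2). Riclin replicate 4 was lowest for 5 members, and Riclin replicate 2 for the remaining 2, Fosb and Atf3. These orders were noticed after the values were seen and were not tested.

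Averaged over the 9 members tested, the level relative to each member's own mean was -0.17, 0.15 and -0.24 in Riclin replicates 2, 3 and 4 and 0.0038, 0.0057 and 0.25 in saline replicates 1, 2 and 4, in log2 units. The 2 highest averages thus came from 1 library of each group. Within-group SDs ran from 0.16 for Atf3 to 0.55 for Fos on the log2 scale. Those of Fos, Zfp36 and Egr1 lay above 96.4%, 90.2% and 86.9% of all genes tested, and those of Atf3, Ier2 and Junb above 57.0%, 59.2% and 64.1%.

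**Figure D4:**
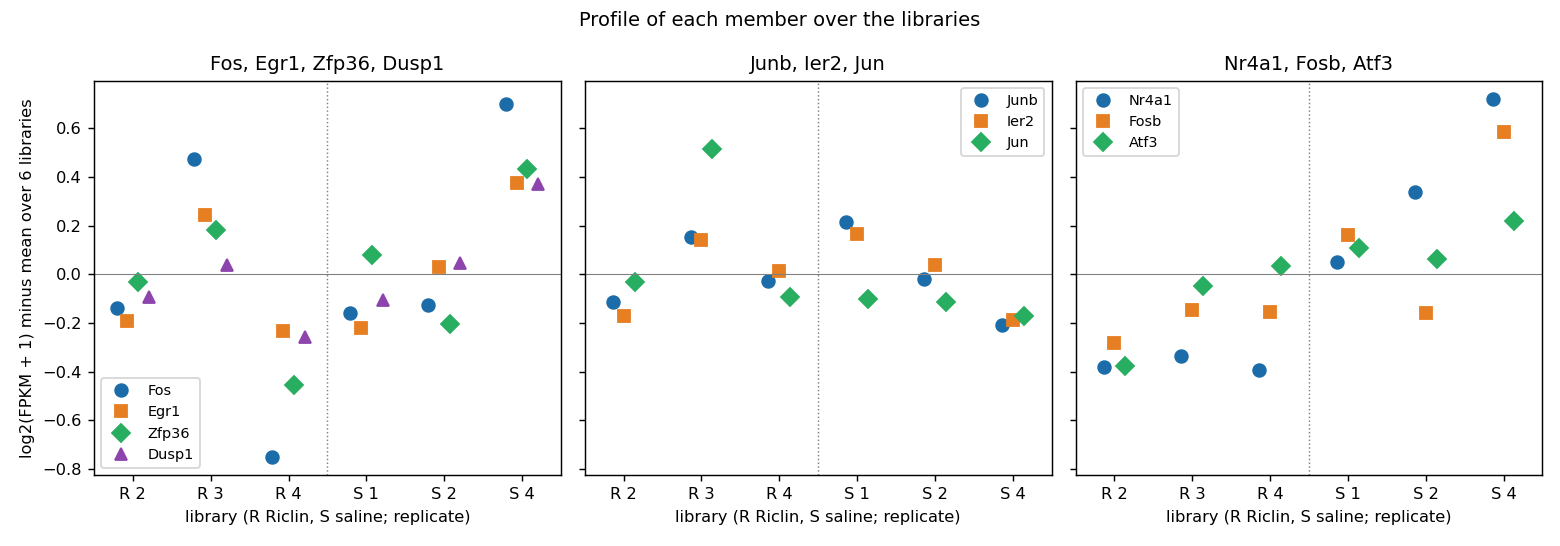
Log2(FPKM + 1) of each member minus its mean over the 6 libraries, with Riclin (R) libraries left and saline (S) libraries right of the dotted line, 1 symbol per member and library. Saline replicate 4 is high for Fos, Egr1, Zfp36 and Dusp1 in the left panel and low for Junb, Ier2 and Jun in the middle one, and only the right panel holds Nr4a1, with every Riclin library below every saline library.

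Levels per length spanned 63.6-fold between the members, from a mean of 43.7 FPKM for Junb to 0.687 FPKM for Fosb. The order by mean was Junb, Jun, Ier2, Fos, Zfp36, Atf3, Dusp1, Egr1, Nr4a1 and Fosb. Jun was above Ier2, Dusp1 above Egr1, Egr1 above Nr4a1 and Nr4a1 above Fosb in all 6 libraries. The neighbours Junb and Jun, Fos and Zfp36, and Zfp36 and Atf3 kept their order in 5 of 6 libraries, and Ier2 and Fos, and Atf3 and Dusp1, in 4 of 6, so these neighbours are not separated beyond the spread between libraries.

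Of 15 other AP-1, ATF and partner genes tested, 11 were higher and 4 lower in Riclin, beside 7195 of all 11738 higher. Of the 15, 0 passed the adjusted threshold. Their median log2 fold change was 0.08 as deposited and 0.01 with pancreatic transcripts removed. In 1 of them, Mafk, a small partner of AP-1 proteins, the groups did not overlap, at 5.39, 6.22 and 5.59 FPKM in Riclin and 5.29, 4.08 and 5.19 FPKM in saline. Over all genes tested, 8.14% were higher without overlap. Jund, the Jun protein least dependent on stimulation, measured 53.1, 60.5 and 50.7 FPKM in Riclin and 62.6, 60.1 and 44.4 FPKM in saline, with overlapping groups.

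Among close relatives of the other members, 8 of 11 tested were higher and 3 lower, beside 7195 of all 11738 higher. The relatives had a median of 0.11, with 0 past the adjusted threshold. The median was 0.02 with pancreatic transcripts removed and 0.05 without Riclin replicate 3. Dusp6, a cytoplasmic phosphatase specific for ERK whose transcription follows ERK activity, measured 10.7, 13.5 and 11.6 FPKM in the Riclin libraries and 8.40, 8.30 and 8.01 FPKM in the saline libraries. The groups did not overlap, and the log2 fold change was 0.48 (SE 0.107, limma unadjusted p = 0.00230, adjusted p = 0.614). Ier5l, a relative of Ier2, did not overlap either, at 2.43, 3.01 and 4.21 FPKM in Riclin and 2.43, 2.27 and 2.23 FPKM in saline, where the nearest libraries almost met. Over all genes tested, 8.14% were higher without overlap. Dusp6 lay on the other side from Dusp1, in means of 11.9 ± 1.42 FPKM for Riclin and 8.24 ± 0.205 FPKM for saline (SD, n = 3 each). The difference between the 2 phosphatases was not tested.

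Beside 38.7% lower over all genes tested, 19 of 43 other early response genes tested were lower and 24 higher. Their median log2 fold change was 0.02 as deposited, -0.02 with median-of-ratios scaling and -0.06 with pancreatic transcripts removed, and 0 passed the adjusted threshold. The groups did not overlap in 6 lower genes, Gadd45a, Gadd45b, Rgs1, Rgs2, Srxn1 and Areg, and in 5 higher ones, Myc, Nfil3, Per1, Hes1 and Id2. The rule chose 4 of these genes, and the others were named after their values were seen. Without overlap, 3.02% of all genes tested were lower and 8.14% higher. Rgs1, a lymphocyte regulator of G protein signalling, measured 0.557, 0.740 and 0.857 FPKM in Riclin and 2.08, 1.03 and 1.92 FPKM in saline. It was below 1 FPKM in each Riclin library and passed the filter through the saline libraries alone, so its groups had to differ and its values are a description. Areg, an EGF receptor ligand, measured 20.3, 28.1 and 15.8 FPKM in Riclin and 29.3, 29.8 and 28.8 FPKM in saline. Per1, a clock gene that also answers to CREB, measured 2.30, 1.24 and 1.61 FPKM in Riclin and 0.765, 0.777 and 1.24 FPKM in saline, where the nearest libraries almost met. Hes1, a Notch target, measured 22.6, 22.3 and 24.1 FPKM in Riclin and 20.7, 14.2 and 16.9 FPKM in saline. The log2 fold changes of Areg, Per1 and Hes1 were -0.47, 0.49 and 0.41, with limma adjusted p-values of 0.806, 0.791 and 0.788.

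Genes upstream of the response, the MAP kinases, their activators and the serum response and CREB factors, were higher in 24 of 27 tested. Over all 11738 genes tested, 7195 were higher. The upstream genes had a median of 0.08, with 0 past the adjusted threshold. The median was 0.0027 with pancreatic transcripts removed, 0.04 with median-of-ratios scaling and 0.05 without saline replicate 2. Srf, which encodes serum response factor, measured 6.67, 6.96 and 6.62 FPKM in Riclin and 7.26, 6.22 and 6.52 FPKM in saline. The coactivator gene Crebbp was the upstream gene whose groups did not overlap, at 2.79, 2.93 and 2.68 FPKM in Riclin and 2.56, 2.16 and 2.66 FPKM in saline. That is 1 of 27, and over all genes tested 8.14% were higher without overlap. Feedback inhibitors of MAP kinase signalling were split, with 4 higher and 5 lower of 9 tested and a median of -0.02, which was 0.12 with the filter at 5 FPKM. In 2 of these 9, Dusp6 and Lrig1, the groups did not overlap, both higher in Riclin. The share higher without overlap was 8.14% over all genes tested. Lrig1, a brake on EGF receptors, measured 6.78, 7.53 and 7.76 FPKM in Riclin and 6.65, 5.98 and 6.02 FPKM in saline.

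Of 15 transcripts known as decay targets of the Zfp36 protein, 6 were high enough to be tested, 4 higher and 2 lower, with a median of 0.01 that was -0.05 with pancreatic transcripts removed and -0.13 without saline replicate 2. Vegfa, a target that codes for a vascular growth factor, measured 13.5, 15.5 and 15.1 FPKM in Riclin and 12.3, 12.2 and 13.2 FPKM in saline. Tnf and Ptgs2, 2 well-known targets, were below 1 FPKM in all 6 libraries. Heat shock genes, which answer stress through another factor, were higher in 16 of 16 tested, beside 7195 of all 11738 genes. Their median was 0.28, with 0 past the adjusted threshold. The median was 0.12 without Riclin replicate 3 and 0.09 with the replicate block. Of these Hspa8 did not overlap, at 346, 460 and 331 FPKM in Riclin and 277, 276 and 306 FPKM in saline. Over all genes tested, 8.14% were higher without overlap. Of the RNA quality genes, 2 of 9 were tested, both higher, with a median of 0.15 that was -0.07 without Riclin replicate 3 or with the replicate block.

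Smooth muscle markers were lower in 9 of 9 tested, with sums of 1376 to 1594 FPKM in Riclin and 1481 to 1950 FPKM in saline that overlapped. Endothelial sums were 109 to 120 FPKM in Riclin and 98.7 to 116 FPKM in saline, and macrophage sums 135 to 219 FPKM and 139 to 170 FPKM. Fibroblast sums were 712 to 785 FPKM in Riclin and 567 to 741 FPKM in saline. Every other marker sum except those of T cells and the antrum overlapped between the groups. Within them, higher were 8 of 8 squamous forestomach (median 0.87), 4 of 4 chief (0.58), 6 of 6 parietal (0.36) and 3 of 3 neutrophil markers tested (0.56). Lower were 4 of 4 mucous neck (-0.67), 7 of 7 surface mucous (-0.15) and 10 of 10 pancreatic acinar markers (-3.89). Mast cell, enteric and proliferation markers were mixed in direction. Beside all these directions, 38.7% of the 11738 genes tested were lower as deposited. The median over all genes tested was 0.04 as deposited and -0.04 with pancreatic transcripts removed. The part of these cell types in the members' values was not tested.

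The genes whose profile over the 6 libraries was most like the mean profile of the 9 members tested were Exosc2, Smc2, Prim1, Atp10a, Tsc22d1, Nop58, Snrpd1 and Ramac. Likeness was the mean absolute difference between centred log2(FPKM + 1) values, which was 0.029 for Exosc2, an RNA exosome subunit, and 0.042 for Ramac, the last of the 8. The mean profile spanned only 0.49 log2 units between libraries, and 10096 genes varied enough to be compared with it. Exosc2 measured 5.42, 7.51 and 5.23 FPKM in Riclin and 6.51, 6.24 and 7.55 FPKM in saline, high in Riclin replicate 3 and saline replicate 4 like the members' mean.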

How the data were processed

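The authors deposited FPKM values for 23550 gene symbols in 6 libraries. Per the labels' protocols total RNA was isolated with TRIzol and prepared with a VAHTS Universal V6 kit. Bowtie2 and the mm10 build are named in the submitters' processing notes. No counting tool or annotation was stated. Groups come from the treatment label and replicate numbers from the titles.

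The test covered 11738 genes, those reaching 1 FPKM in 3 or more libraries, among them 9 of the 10 members. Riclin was compared with saline on log2(FPKM + 1) by limma 3.58.1 with a trended variance prior (R 4.3.3), two-sided, with Benjamini-Hochberg adjustment over all genes tested. The fit was checked on simulated data. Whole reads were recovered from ratios of FPKM values between libraries, within 0.001 of a whole number for all 23550 genes, as the smallest whole numbers that give those ratios. They gave depth, the 95% exact Poisson intervals, which cover counting error only, and 1 alternative fit. Positions come from GENCODE M21 and promoters from RefSeq. The members and lists were chosen with earlier results of these data known, so lists are described by counts and medians with no test. Apart from the members, each list contributed up to 2 genes in each direction, those with the largest log2 fold change among genes whose groups did not overlap, and 8 genes most like the members' mean profile were named. Other genes given with values (Nr4a2, Nr4a3, Jund, Srf, Tnf and Ptgs2) were named after their values were seen. Alternatives were another pseudocount, 2 other filters, 3 scalings, a robust prior, a replicate block, voom on recovered reads, and libraries left out. Figures were drawn with matplotlib 3.10.9.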

Additional observations from a re-analysis of the deposited data

How the results depend on the processing

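Under 16 alternatives no member passed the adjusted threshold. The direction of Nr4a1, Atf3, Dusp1, Zfp36 and Jun held in all in which they could be tested. Fosb was lower in the 12 alternatives that gave it a value, but it was tested only where low values were not filtered. Nr4a1 ranged from -1.16 (voom on recovered reads) to -0.57 (without saline replicate 4), with limma adjusted p from 0.363 to 0.958. The count of all genes past the threshold, 0 as reported, was 2 with the robust variance prior and from 0 to 1 when single libraries were left out, the 1 without saline replicate 2. The sign of Fos turned without Riclin replicate 4 (0.03006) or saline replicate 4 (0.005131), and its value ranged from -0.5825 to 0.03006 over single libraries left out. Junb, at 0.01, was -0.04048 with median-of-ratios scaling, -0.02549 with upper-quartile scaling and -0.08586 with pancreatic transcripts removed, and ranged from -0.09315 to 0.1196 over single libraries left out. Egr1 ranged there from -0.2736 to 0.03387, its sign turning without saline replicate 4, and Ier2 from -0.1063 to 0.07357, its sign turning without Riclin replicate 2, saline replicate 1 or saline replicate 2. Without saline replicate 1 and Riclin replicate 3 together, Fos was at -0.731 and Egr1 at -0.4136. The number of members lower in each Riclin library, 2 as reported, was 5 without saline replicate 1 and Riclin replicate 3 together, where 2 libraries a group remain and 13.7% of all genes are separated that way. The causes were not tested. The labels do not say whether equal replicate numbers pair the libraries. Deviations from the group means correlated at 0.22 for number 2 and 0.01 for number 4. No unmatched libraries were compared, so these values cannot decide it. With the replicate block, which rests on the 4 libraries numbered 2 and 4, 0 genes passed and Nr4a1 was at -0.92. Depth limits Fosb most, with 50 to 172 reads a library.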
